A study of Mus musculus with 8 samples.

Results

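The KLF genes encode Krüppel-like factors, transcription factors with a shared zinc finger domain. Levels of 10 of them, Klf2, Klf3, Klf4, Klf5, Klf6, Klf7, Klf9, Klf10, Klf13 and Klf16, were followed in mouse embryonic stem cells (ESCs) in 4 culture conditions. The genes were taken by name from the deposited expression tables, in which they are 10 of 38991 genes with distinct identifiers, and each was found on 1 row. The cells were RGd2 (Rex1GFPd2) ESCs of strain 129 at passage 11, 1 line, whose Rex1 (Zfp42) locus carries a short-lived GFP as reporter. All cultures were grown in N2B27 medium on gelatin, had been expanded in 2i for 6 passages before 5 passages in their condition, and were replated every 3 days. There were 2 cultures in each condition. 2i holds CH (CHIR99021, 3 µM), which inhibits GSK3, and PD (PD0325901, 1 µM), which inhibits MEK, without the cytokine LIF; 2i+LIF holds all 3 components, LIF+PD lacks CH, and CH+LIF lacks PD. Each condition with 2 components therefore differs from 2i+LIF by the absence of 1. The labels do not say whether the 2 cultures of a condition were grown independently, so p-values measure the spread between these samples, which may be technical.

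Krüppel-like factors bind GC-rich and CACCC-type DNA through 3 C-terminal zinc fingers, and the parts of the protein outside the fingers determine which cofactors are recruited. Klf2, Klf4 and Klf5 are known as partly redundant activators of ESC self-renewal, and Klf4 and Klf5 are known targets of LIF acting through Stat3. Klf3 recruits CtBP and is mainly a repressor, while Klf9, Klf10, Klf13 and Klf16 recruit Sin3 corepressors. Klf6 and Klf7 belong to the activating group.

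The promoters of 7 of the 10 genes were matched in RefSeq (GRCm38.p6), as windows of 300 bases reaching from 250 before to 50 after the start. The window of Klf7 (chr1:64121340-64121639, minus strand) lies inside the gene as deposited, which begins at 64122282 on that strand. Those of Klf5, Klf10 and Klf16 were not matched. The upstream part of the window is printed for Klf2, Klf3 and Klf4, 3 abundant genes that differed in their response to the media, up to the start given by RefSeq or by the deposited table, whichever comes first. Capitals mark the GC box GGGCGG on either strand, a sequence of the kind that KLF and SP proteins bind.
Klf2, chr8:72318812-72319032, plus strand: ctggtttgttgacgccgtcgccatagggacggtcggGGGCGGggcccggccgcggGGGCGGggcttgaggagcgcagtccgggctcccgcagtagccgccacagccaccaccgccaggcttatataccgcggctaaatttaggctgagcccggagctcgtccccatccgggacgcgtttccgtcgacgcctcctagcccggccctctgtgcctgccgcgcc
Klf3, chr5:64803271-64803520, plus strand: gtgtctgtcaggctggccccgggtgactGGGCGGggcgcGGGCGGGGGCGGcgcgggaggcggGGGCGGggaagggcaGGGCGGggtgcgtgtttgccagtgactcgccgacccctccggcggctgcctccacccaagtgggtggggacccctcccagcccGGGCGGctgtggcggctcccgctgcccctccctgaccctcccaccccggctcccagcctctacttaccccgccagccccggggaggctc
Klf4, chr4:55532476-55532725, minus strand: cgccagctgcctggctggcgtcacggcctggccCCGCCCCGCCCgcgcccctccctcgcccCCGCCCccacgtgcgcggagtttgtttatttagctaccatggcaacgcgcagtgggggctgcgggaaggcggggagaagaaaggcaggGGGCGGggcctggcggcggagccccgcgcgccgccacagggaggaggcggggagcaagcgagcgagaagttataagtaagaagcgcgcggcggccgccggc
The GC box was found in 6 of the 7 windows, and in 35.7% of 32851 RefSeq windows of the same length. It occurred 6 times in the window of Klf3, 4 times in that of Klf4 and 2 times in that of Klf2, with overlapping matches counted separately. The CACCC-type motif CCCACCC was found in 4 windows (17.5% of all windows). A palindromic STAT-type motif, TTCNNNGAA, was found in 1 window, that of Klf9 (8.30% of all), and CTTTGA, a TCF/LEF-type motif, in 1 window, that of Klf6 (16.0% of all). The 7 windows were between 58.3% and 76.7% G and C, against a median of 52.7% over all windows. These counts describe letters in the windows only.

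Levels are given as FPKM, fragments normalised to transcript length and library size, which allows genes of different length to be set side by side. Summed over all genes FPKM came to between 715575 and 875458 in a culture, and 11659 to 12109 genes reached 1 FPKM. The files give no read totals. From the spacing of low values, relative depth was estimated at 0.499 to 1.18 times that of the first 2i+LIF culture, resting on 15.4% to 22.8% of 1135 to 1602 low genes. The lowest was the first 2i culture. The naive ESC markers, Pou5f1, Sox2, Nanog and 5 others, were all detected, with a summed level of 2908 to 3746 FPKM. This sum was mostly Pou5f1, at 1625 to 2269 FPKM, and the members did not move together. Dppa3 was at 66.0 and 47.9 FPKM in 2i+LIF against 2.37 and 2.30 in CH+LIF. Tfcp2l1 was at 115 and 123 in 2i+LIF against 62.8 and 53.7 in 2i and 57.0 and 48.9 in LIF+PD. Zfp42 was higher in LIF+PD, at 253 and 260 against 217 and 193 in 2i+LIF. For each of the 3 signals a readout followed the media. Socs3, a LIF target, was at 2.59 and 1.29 FPKM in 2i against 63.9 to 119 in the other cultures. Axin2, a target of β-catenin, was at 1.85 and 2.47 in LIF+PD against 59.4 to 68.4. Spry4, induced by Erk signalling, was at 37.5 and 40.7 in CH+LIF against 0.293 to 2.17. Lef1, the other readout of CH, did not follow CH. It was at 6.02 and 5.46 FPKM in 2i+LIF and 4.52 and 4.97 in LIF+PD, against 37.1 and 36.4 in 2i and 31.3 and 17.9 in CH+LIF. Of 7 such readouts, 1 (Lef1) rose and 3 (Socs3, Stat3 and Spry4) fell in 2i, 1 fell in LIF+PD and 4 rose in CH+LIF against 2i+LIF. By the test described below, 18.6%, 25.2% and 25.4% of all genes differed in these comparisons.

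Among the 10 genes, Klf2 was the most abundant in 3 of the 4 conditions and Klf7 the least abundant in all 4. Klf2 stood at 351 and 356 FPKM in 2i+LIF, 265 and 281 in 2i, 232 and 234 in LIF+PD, and 205 and 263 in CH+LIF. Both cultures of each condition lacking a component were below both 2i+LIF cultures, and the 2 CH+LIF cultures lay further apart than those of any other condition. Klf4 stood at 203 and 196 FPKM in 2i+LIF, 47.7 and 50.6 in 2i, 117 and 103 in LIF+PD, and 175 and 219 in CH+LIF. Its 2i cultures were lowest, its LIF+PD cultures intermediate, and its CH+LIF cultures spanned those of 2i+LIF. Klf5 stood at 167 and 168 FPKM in 2i+LIF, 76.2 and 60.8 in 2i, 172 and 156 in LIF+PD, and 241 and 260 in CH+LIF. It was lowest in 2i and highest in CH+LIF, without overlap with the other conditions.

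Klf3 stood at 56.6 and 62.5 FPKM in 2i+LIF, 37.7 and 43.8 in 2i, 72.2 and 78.6 in LIF+PD, and 77.0 and 79.0 in CH+LIF. The 2i cultures were below all others, and the ranges in LIF+PD and CH+LIF overlapped. Klf10, induced by TGF-β, stood at 33.9 and 33.5 FPKM in 2i+LIF, 24.9 and 21.8 in 2i, 25.4 and 23.1 in LIF+PD, and 32.2 and 31.4 in CH+LIF. It thus fell into a higher pair of conditions, 2i+LIF and CH+LIF, and a lower pair, 2i and LIF+PD. Klf7, best known from neuronal development, stood at 1.64 and 1.63 FPKM in 2i+LIF, 2.17 and 3.36 in 2i, 6.15 and 6.68 in LIF+PD, and 2.39 and 2.26 in CH+LIF. Its LIF+PD cultures were above all others.

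Klf6, a widely expressed activator, stood at 14.4 and 17.3 FPKM in 2i+LIF, 11.95 and 12.39 in 2i, 16.4 and 16.8 in LIF+PD, and 11.3 and 12.5 in CH+LIF. Klf9, a glucocorticoid-responsive gene, stood at 49.5 and 50.8 FPKM in 2i+LIF, 41.4 and 46.0 in 2i, 59.0 and 56.3 in LIF+PD, and 48.8 and 49.9 in CH+LIF. Both were highest or among the highest in LIF+PD. Klf13 ranged from 13.2 to 22.3 FPKM and Klf16 from 28.7 to 42.3 over the 8 cultures, and neither passed the test in any comparison; the lowest unadjusted limma p was 0.0216, for Klf16 in LIF+PD against 2i+LIF (adjusted p = 0.0720).

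**Figure D1:**
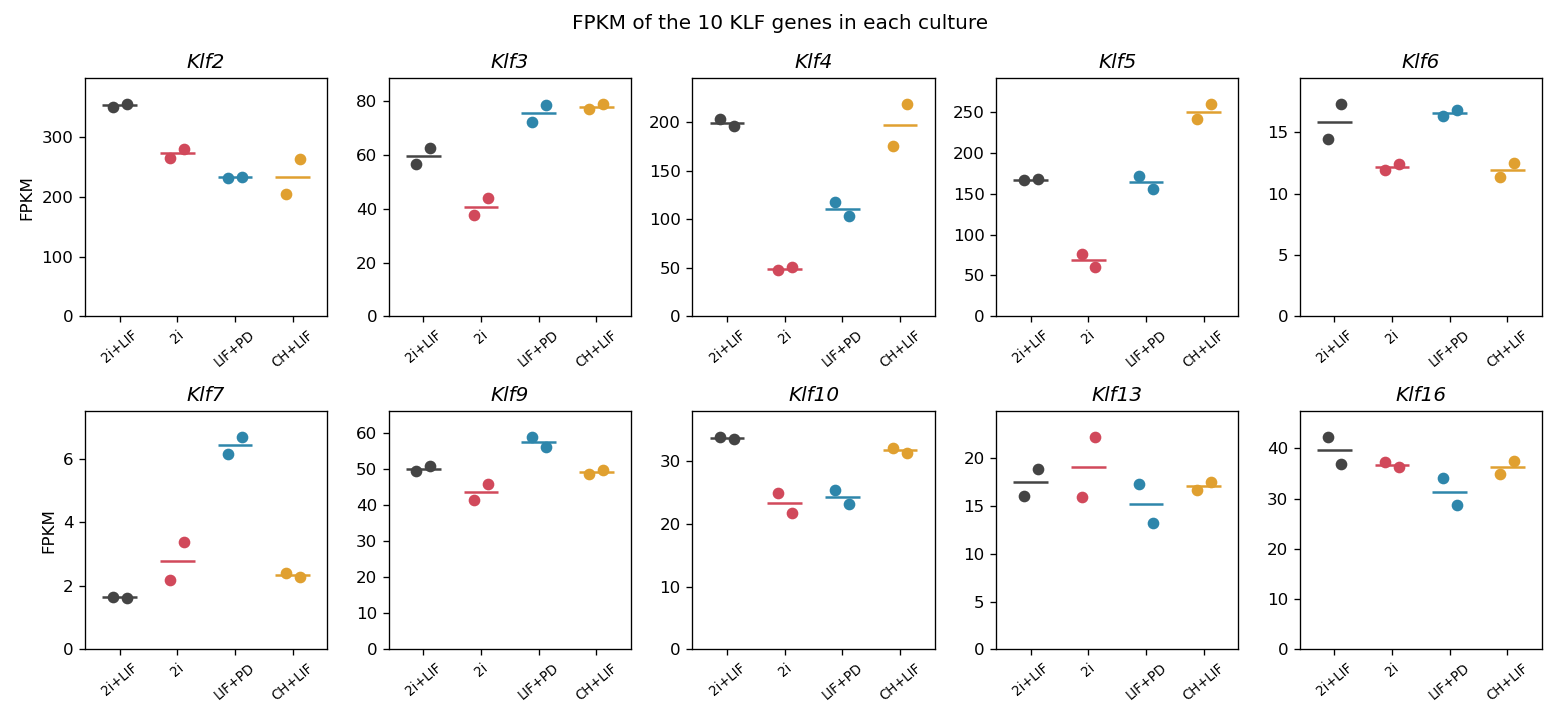
FPKM of each of the 10 KLF genes (y axis, from 0, a separate scale for each gene) in 2i+LIF, 2i, LIF+PD and CH+LIF (x axis). Points are cultures, 2 for each condition, and lines are their means; Klf4 and Klf5 are lowest in 2i, and Klf7 is highest in LIF+PD.

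The order of levels was Klf2, Klf4, Klf5 and Klf3 in 2i+LIF, with means of 354 ± 3.77, 200 ± 4.55, 167 ± 0.734 and 59.6 ± 4.14 FPKM (SD, n = 2). In 2i Klf2 (273 ± 11.6 FPKM) was followed by Klf5 (68.5 ± 10.9) and Klf4 (49.1 ± 2.02). In LIF+PD the order was again Klf2 (233 ± 1.56 FPKM), Klf5 (164 ± 11.3) and Klf4 (110 ± 10.03). In CH+LIF the ranges of Klf5 (251 ± 13.4 FPKM), Klf2 (234 ± 41.2) and Klf4 (197 ± 30.9) overlapped for Klf5 with Klf2 and for Klf2 with Klf4. Klf4 was below Klf5 and below Klf2 within each CH+LIF culture, while Klf5 was above Klf2 in the first and below it in the second. The other neighbours that overlapped were Klf13 and Klf6 in 2i+LIF, Klf9 with Klf3 and Klf10 with Klf13 in 2i, and Klf6 and Klf13 in LIF+PD. For Klf2 in 8 of 8 cultures and Klf5 in 7 of 8 the deposited FPKM lay above the upper bound given beside it, by 1.05 to 1.08 times for Klf2 and 1.02 to 1.08 times for Klf5, as did that of 6.55% to 12.1% of genes at 1 FPKM or more in each culture. Comparisons of Klf2 and Klf5 with other genes carry that uncertainty.

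Differences between conditions were tested with limma on log2(FPKM + 1), across 12927 genes that reached 1 FPKM in at least 2 cultures, with Benjamini-Hochberg adjustment in each comparison and a call at an adjusted p below 0.05. All 10 KLF genes were among those tested. Fold changes below are differences on that log2 scale with their standard error. Rescaling every culture to the same FPKM sum (TPM) shifted the median over all genes by more than 0.1 in part of the comparisons, to 0.16 in LIF+PD and 0.19 in CH+LIF against 2i+LIF, and small differences are read against that shift. In these bulk samples, fewer cells expressing a gene and less RNA per cell cannot be told apart.

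Without LIF (2i compared with 2i+LIF), 4 of the 10 KLF genes fell and none rose. Of all genes tested 8.86% fell, 9.77% rose and 18.6% were called in either direction. Klf4 changed most, by −2.001 ± 0.12 (adjusted p = 0.000140), its mean level in 2i being 0.246 times that in 2i+LIF. Klf5 changed by −1.28 ± 0.12 (adjusted p = 0.000703), to 0.409 times. Klf3 changed by −0.54 ± 0.10 and Klf10 by −0.51 ± 0.10, both with an adjusted p of 0.0117. The difference for Klf2 was −0.37 ± 0.12 and did not pass (adjusted p = 0.0709), although its groups did not overlap; leaving out either CH+LIF culture, which enters only the estimate of the spread, brought it to 0.0236. The median difference over the 10 genes was −0.36, against 0.04 over all genes. The calls for Klf4 and Klf5 were kept in every alternative, whereas that of Klf3 was lost without the second 2i+LIF or the first 2i culture and under TPM, and that of Klf10 without either 2i+LIF or the second 2i culture.

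Without CH (LIF+PD compared with 2i+LIF), 3 of the 10 KLF genes fell and 2 rose. Of all genes 10.4% fell, 14.8% rose and 25.2% were called; 58.6% of the calls were higher, and 74.8% under TPM. Klf7 rose by 1.49 ± 0.18 (adjusted p = 0.00145), with a mean 3.93 times that in 2i+LIF from a low level. Klf4 changed by −0.85 ± 0.12 (adjusted p = 0.00306), Klf2 by −0.60 ± 0.12 (adjusted p = 0.0115) and Klf10 by −0.46 ± 0.10 (adjusted p = 0.0140). Klf3 was higher by 0.34 ± 0.10, close to the threshold (adjusted p = 0.0486), a call lost in 6 of the 11 alternatives that kept all cultures (among them 0.0512 with a pseudocount of 0.1 and 0.0797 with no trend). For Klf5 the difference was −0.03 ± 0.12 with a 95% interval of −0.31 to 0.24, and it turned to 0.10 under TPM. The median over the 10 genes was −0.11 and over all genes 0.03, and under TPM 0.02 and 0.16. The call for Klf4 was kept in every alternative, and that for Klf7 in every one in which it was tested; a filter at a mean of 5 FPKM over the 8 cultures removed it. Those of Klf2, Klf3 and Klf10 were each lost without either 2i+LIF culture; that of Klf2 also without either LIF+PD culture and under TPM (−0.47, adjusted p = 0.0585), that of Klf10 without the second LIF+PD culture, and that of Klf3 without either LIF+PD or either CH+LIF culture.

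Without PD (CH+LIF compared with 2i+LIF), 2 of the 10 KLF genes rose and 2 fell. Of all genes 12.2% rose, 13.3% fell and 25.4% were called; 47.9% of the calls were higher, and 74.1% under TPM. Klf5 rose by 0.58 ± 0.12 (adjusted p = 0.0131), to 1.498 times, and Klf3 by 0.39 ± 0.10 (adjusted p = 0.0311). Klf2 changed by −0.60 ± 0.12 (adjusted p = 0.0116) and Klf6 by −0.38 ± 0.11 (adjusted p = 0.0470). Klf4 differed by −0.03 ± 0.12, with a 95% interval of −0.31 to 0.26, and by 0.18 under TPM. The median over the 10 genes was −0.03 and over all genes 0.01, and under TPM 0.17 and 0.19. Without either 2i+LIF culture the count of calls fell from 4 to 0; the call for Klf6 was lost without any 1 of the 8 cultures, that for Klf3 without either CH+LIF culture and that for Klf5 without the second. Under TPM 2 calls were left, and those of Klf2 (−0.40, adjusted p = 0.0836) and Klf6 were lost.

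**Figure D2:**
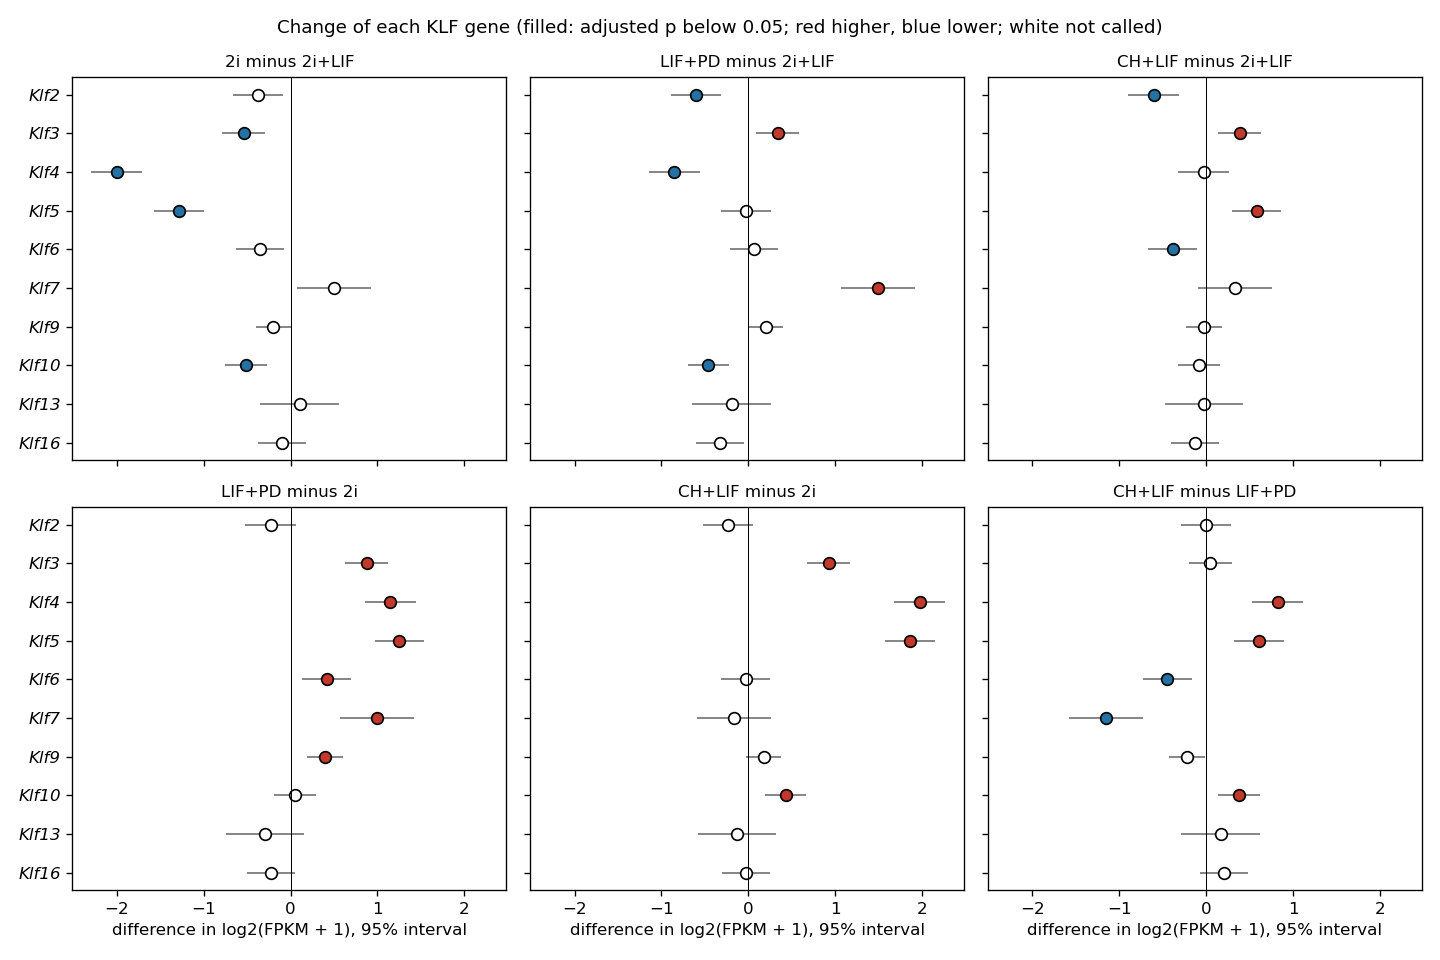
Difference in log2(FPKM + 1) with its 95% interval (x axis) for each of the 10 KLF genes (y axis) in the 6 comparisons. Filled points passed an adjusted p of 0.05, red when higher and blue when lower in the condition named first. Calls run in 1 direction in 2i against 2i+LIF and in both comparisons with 2i below, and in both directions in the other 3 panels.

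The remaining comparisons exchange 1 component for another. They share cultures with those above and are not independent of them. With LIF in place of CH beside PD (LIF+PD compared with 2i), 6 of the 10 KLF genes rose and none fell. Of all genes 14.0% rose, 11.1% fell and 25.1% were called. Klf5 rose by 1.25 ± 0.12 (adjusted p = 0.000503), Klf4 by 1.15 ± 0.12 (adjusted p = 0.000769), Klf7 by 1.00 ± 0.18 (adjusted p = 0.00677) and Klf3 by 0.87 ± 0.10 (adjusted p = 0.00118). Klf6 (0.42 ± 0.11, adjusted p = 0.0360) and Klf9 (0.39 ± 0.08, adjusted p = 0.0132) also rose; this was the only comparison of the 6 in which Klf9 passed, and both calls were lost without the first 2i or the first LIF+PD culture, that of Klf6 also without the second of either or either CH+LIF culture. The median over the 10 genes was 0.41, against −0.0045 over all genes.

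With LIF in place of PD beside CH (CH+LIF compared with 2i), 4 of the 10 KLF genes rose and none fell. Of all genes 10.6% were higher, 13.3% lower and 23.9% called. Of these calls 44.5% were higher, and 64.1% under TPM. Klf4 rose by 1.97 ± 0.12 (adjusted p = 0.000143) and Klf5 by 1.86 ± 0.12 (adjusted p = 0.000151), 4.01 and 3.66 times. Klf3 rose by 0.92 ± 0.10 (adjusted p = 0.00127) and Klf10 by 0.43 ± 0.10 (adjusted p = 0.0195). Klf2 differed by −0.23 ± 0.12 and was not called, but passed without the second CH+LIF culture (adjusted p = 0.0383). The median over the 10 genes was 0.08, against −0.03 over all genes. The call for Klf10 was lost without the second 2i culture or either CH+LIF culture.

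With CH in place of PD beside LIF (CH+LIF compared with LIF+PD), 3 of the 10 KLF genes were higher and 2 lower. Of all genes 12.6% were higher, 17.8% lower and 30.4% called. Klf4 was higher by 0.82 ± 0.12 (adjusted p = 0.00272), Klf5 by 0.61 ± 0.12 (adjusted p = 0.00819) and Klf10 by 0.38 ± 0.10 (adjusted p = 0.0243). Klf7 differed by −1.16 ± 0.18 (adjusted p = 0.00327) and Klf6 by −0.45 ± 0.11 (adjusted p = 0.0243). Klf2 differed by −0.0034 ± 0.12, with a 95% interval of −0.28 to 0.28 and a sign that turned under TPM (0.06). The median over the 10 genes was 0.11, against −0.01 over all genes. The call for Klf4 held in every alternative and that for Klf7 in those that tested it, the filter at a mean of 5 FPKM being the exception; that of Klf5 was lost without the second LIF+PD culture, and those of Klf6 and Klf10 without any 1 of the 4 cultures compared.

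In a single comparison, between 18.6% and 30.4% of all genes tested were called. Over the 60 pairs of gene and comparison there were 28 calls, and 10 of these were kept under every alternative tried. A further 3, all of Klf7, were kept in the alternatives that tested it, which the filter at a mean of 5 FPKM did not. No call changed sign. Where limma called none of the 10 in a direction, 1 gene (Klf7, higher in 2i than in 2i+LIF) had an unadjusted p below 0.05, and 0 were lower at that level in LIF+PD or CH+LIF against 2i. Klf3, Klf4 and Klf5 were each called in 5 of the 6 comparisons, Klf10 in 4, Klf6 and Klf7 in 3, Klf2 in 2 and Klf9 in 1. The 6 comparisons share cultures, so calls of the same gene are not independent.

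Whether 1 member rises as another falls was read from members called in opposite directions in the same comparison. There were 6 such pairs in LIF+PD against 2i+LIF (Klf3 and Klf7 up, Klf2, Klf4 and Klf10 down), 4 in CH+LIF against 2i+LIF (Klf3 and Klf5 up, Klf2 and Klf6 down) and 6 in CH+LIF against LIF+PD (Klf4, Klf5 and Klf10 up, Klf6 and Klf7 down). In the other 3 comparisons there were none among the 10 genes. Each count is the number of members called higher multiplied by the number called lower. Among all genes tested, 14.8% rose and 10.4% fell in LIF+PD and 12.2% rose and 13.3% fell in CH+LIF, each against 2i+LIF. Between CH+LIF and LIF+PD the shares were 12.6% higher and 17.8% lower. Klf15, outside the 10, was called lower in LIF+PD than in 2i (−0.47, limma adjusted p = 0.00845), where 6 of the 10 rose. Klf2 and Klf5 moved apart when PD was absent, but no KLF call in CH+LIF against 2i+LIF held without either 2i+LIF culture. The pair with Klf4 lower and Klf7 higher in LIF+PD, and its reverse against CH+LIF, rested on calls kept in every alternative that tested both genes; Klf7 was not tested under the filter at a mean of 5 FPKM.

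The summed level of the 10 genes and its composition differed between conditions. It came to 935 and 942 FPKM in 2i+LIF, 560 and 579 in 2i, 752 and 716 in LIF+PD, and 845 and 972 in CH+LIF. The 2i cultures were below all others. Klf2, Klf4 and Klf5 together made up 76.8% ± 0.416 of the sum in 2i+LIF, 68.6% ± 1.09 in 2i, 69.1% ± 0.350 in LIF+PD and 74.95% ± 1.96 in CH+LIF (SD, n = 2). The share of Klf2 was 37.7% in 2i+LIF, 48.0% in 2i, 31.7% in LIF+PD and 25.7% in CH+LIF. That of Klf4 was 21.3%, 8.63%, 15.0% and 21.6% in the same order. That of Klf5 was 17.8%, 12.1%, 22.3% and 27.7%. A share rises when the other members fall: the share of Klf2 was highest in 2i although its level there was lower than in 2i+LIF.

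**Figure D3:**
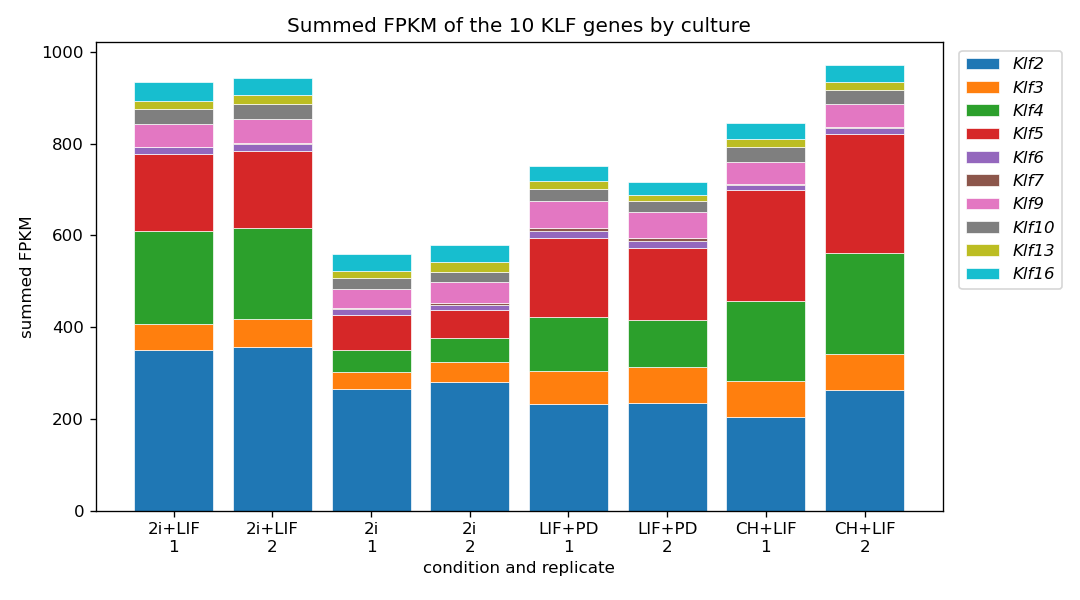
Summed FPKM of the 10 KLF genes (y axis, from 0) in each of the 8 cultures (x axis, condition and replicate number), with a coloured segment for each gene. The 2i bars reach 560 and 579 FPKM and are 47.3% and 48.6% Klf2, while Klf5 is the tallest segment in the first CH+LIF bar.

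The ratio of Klf4 to Klf2 was 0.578 and 0.551 in 2i+LIF, 0.180 and 0.180 in 2i, 0.507 and 0.442 in LIF+PD, and 0.855 and 0.832 in CH+LIF. No 2 conditions overlapped. Replicate cultures differed little in 2i+LIF, 2i and CH+LIF, although Klf2 and Klf4 were both lower in the first CH+LIF culture. The LIF+PD ratios lay further apart from each other than the higher of them lay from the lower 2i+LIF ratio. The ratio of Klf5 to Klf2 was 0.475 and 0.471 in 2i+LIF, 0.288 and 0.216 in 2i, 0.742 and 0.666 in LIF+PD, and 1.18 and 0.988 in CH+LIF. It was above its value in 2i+LIF in both conditions with LIF and 1 inhibitor, and below it in 2i. These ratios are descriptions and were not tested.

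**Figure D4:**
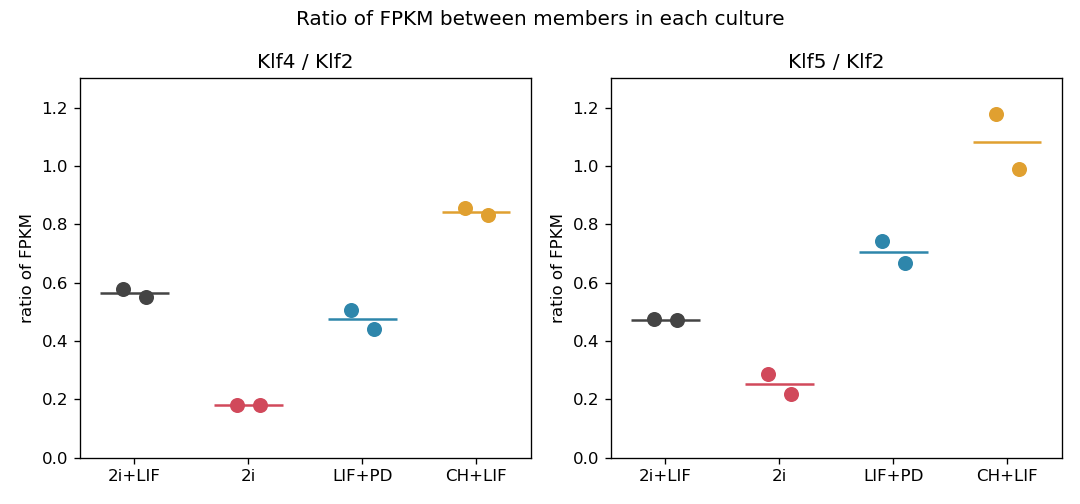
Ratio of FPKM of Klf4 to Klf2 (left) and of Klf5 to Klf2 (right) on the y axis, by condition on the x axis. Points are cultures and lines the means of 2; both ratios are lowest in 2i and highest in CH+LIF.

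Of the 16 other KLF and SP genes, 10 were tested, and Klf1, Klf14, Klf17, Sp6, Sp7 and Sp9 were below the filter. Against 2i+LIF, 1 rose and 2 fell in 2i, 2 rose and 2 fell in LIF+PD, and 2 rose and 3 fell in CH+LIF, where 18.6%, 25.2% and 25.4% of all genes were called. Against 2i, 3 fell and none rose in LIF+PD, and 3 rose and none fell in CH+LIF. Of all genes 14.0% rose and 11.1% fell in LIF+PD, and 10.6% rose and 13.3% fell in CH+LIF. CH+LIF against LIF+PD gave 3 higher and 1 lower, against 12.6% and 17.8% of all genes. At an unadjusted limma p below 0.05, 1 was higher in LIF+PD and 1 lower in CH+LIF than in 2i. Sp5, a target of Wnt signalling, stood at 69.4 and 62.3 FPKM in 2i+LIF, 28.6 and 21.9 in 2i, 0.188 and 0.417 in LIF+PD, and 45.0 and 41.8 in CH+LIF. It was called in all 6 comparisons, and fell by 5.69 in LIF+PD against 2i+LIF (adjusted p = 6.5e-06). Klf15 stood at 22.4 and 22.4 FPKM in 2i+LIF, 16.4 and 15.9 in 2i, 11.5 and 11.3 in LIF+PD, and 21.6 and 23.4 in CH+LIF. Like Klf4, it was lower in 2i and LIF+PD than in 2i+LIF, but its lowest condition was LIF+PD. Klf12, a repressor that binds CtBP, rose by 1.69 in CH+LIF against 2i+LIF (adjusted p = 0.00332), from 0.919 and 0.887 FPKM to 4.96 and 5.29, and was also higher in CH+LIF than in 2i (adjusted p = 0.0270) and LIF+PD (adjusted p = 0.00319). Sp1 was higher than in 2i+LIF by 0.71 in LIF+PD (adjusted p = 0.0296) and by 0.83 in CH+LIF (adjusted p = 0.0173).

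Among 14 cofactors and regulators of KLF proteins, 1 fell and none rose in 2i, 3 rose in LIF+PD, and 4 rose and 1 fell in CH+LIF, each against 2i+LIF. Of all genes 18.6%, 25.2% and 25.4% were called in these comparisons, so that the counts of 1 in 2i and 3 in LIF+PD were below that share. Hdac2, a histone deacetylase, was the one that fell in 2i (−0.92, adjusted p = 0.00401). In LIF+PD Fbxw7 (0.59) and Wwp1 (0.46), both ubiquitin ligase components, and the corepressor Ctbp2 (0.44) were higher. In CH+LIF the corepressor subunit Sin3b was lower (−1.04, adjusted p = 0.00125) while Sin3a was higher (0.65, adjusted p = 0.0294). In the other comparisons 1 rose and none fell (LIF+PD against 2i), 4 rose and 2 fell (CH+LIF against 2i), and 2 rose and 3 fell (CH+LIF against LIF+PD). Of all genes 14.0% rose and 11.1% fell, 10.6% rose and 13.3% fell, and 12.6% rose and 17.8% fell in the same order. At an unadjusted limma p below 0.05, 3 were higher in 2i than in 2i+LIF, 0 were lower in LIF+PD than in 2i+LIF and 1 was lower in LIF+PD than in 2i.

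Of 13 genes known to be bound by KLF factors in ESCs, 5 fell and none rose in 2i, 5 rose and 3 fell in LIF+PD, and 5 fell and none rose in CH+LIF, each against 2i+LIF. Of all genes 9.77% rose and 8.86% fell in 2i, 14.8% rose and 10.4% fell in LIF+PD, and 12.2% rose and 13.3% fell in CH+LIF. Tcl1, an Akt cofactor, fell in all 3, by 1.64, 0.80 and 1.38. Tfcp2l1, a naive pluripotency factor, fell by 1.03 in 2i and by 1.16 in LIF+PD. Nanog fell by 0.80 in CH+LIF. Tcf7l1, the repressor that CH relieves, fell by 1.55 in CH+LIF, where CH was present as in 2i+LIF. Without CH, in LIF+PD, Tcf7l1 rose by 0.53 (limma adjusted p = 0.0120). Fbxo15 rose by 0.93 in LIF+PD. Relative to 2i, 7 rose and none fell in LIF+PD, and 4 rose and 3 fell in CH+LIF. Of all genes 14.0% rose and 11.1% fell in LIF+PD, and 10.6% rose and 13.3% fell in CH+LIF. Between CH+LIF and LIF+PD, 3 were higher and 6 lower, against 12.6% and 17.8% of all genes. At an unadjusted limma p below 0.05, 1 was higher in 2i and 2 in CH+LIF than in 2i+LIF, and 1 was lower in LIF+PD than in 2i. The list median was −0.13 in 2i, −0.04 in LIF+PD and −0.33 in CH+LIF, against 0.04, 0.03 and 0.01 over all genes. Under TPM it was −0.06, 0.09 and −0.13, against 0.09, 0.16 and 0.19 over all genes. The sign of the list median in LIF+PD turned, but it stayed below the median over all genes.

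Among 8795 genes outside the KLF and SP families with a mean of at least 5 FPKM, those whose log2(FPKM + 1), centred over the 8 cultures, lay nearest to that of Klf2 included Emc10 and Abhd17c, with root mean square differences of 0.0696 and 0.0805. Emc10 had means of 75.8, 64.3, 53.6 and 51.4 FPKM in 2i+LIF, 2i, LIF+PD and CH+LIF. Nearest to Klf4 were Cacnb1 (0.183), Pttg1 (0.205) and Fst (0.248). Cacnb1, a calcium channel subunit, had means of 12.2, 3.35, 8.34 and 14.1 FPKM in the same order. Nearest to Klf5 were Sigirr (0.120), H2afy2 (0.125) and Fzd5 (0.130), and Fzd5, a Wnt receptor, had means of 28.4, 8.96, 26.0 and 37.1 FPKM. The median difference over the genes searched was 0.357 for Klf2, 0.858 for Klf4 and 0.729 for Klf5.

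Markers of other cell types moved with the conditions. The summed level of 6 primed epiblast markers was 39.6 to 43.3 FPKM in 2i+LIF, 72.5 to 92.9 in 2i, 96.3 to 105 in LIF+PD and 87.6 to 108 in CH+LIF, with Fgf5 and Foxa2 below 1 FPKM in every culture. Its members did not move together: in LIF+PD Otx2 was at 50.3 and 49.2 FPKM against 2.44 and 1.80 in 2i+LIF, while T was at 0.161 and 0.210 against 4.86 and 3.64. In CH+LIF Otx2 was at 2.15 and 2.11, T at 36.3 and 18.5 and Dnmt3b at 68.8 and 65.1 FPKM. That of 6 trophectoderm markers was 35.4 to 37.3, 46.5 to 49.5, 62.6 to 73.7 and 26.9 to 27.6 FPKM in the same order, with Elf5 below 1 throughout. In LIF+PD, where this sum and Klf7 were highest, it was mostly Tfap2c (45.4 and 52.8 FPKM) and Gata3 (14.4 and 18.4), whereas Cdx2 was at 0.0433 and 0.0960 against 10.2 and 7.91 in 2i+LIF. Eomes was highest in CH+LIF, at 9.98 and 8.85 FPKM. Of 6 endothelial or blood markers, Hbb-bt was at 0 and Cdh5 and Ptprc were below 1 FPKM, and the sum of 26.6 to 43.2 was nearly all Pecam1, at 25.3 to 42.3. Of 6 fibroblast markers Col3a1 and Dcn were at 0, with a sum of at most 5.24 FPKM. The 5 primitive endoderm markers matched summed to at most 3.04 FPKM, with Gata6, Sox17, Sox7 and Pdgfra below 1, and 4 markers of 2-cell-like cells to at most 3.13, with Tcstv3 at 0. The part of these markers in the KLF differences was not tested.

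Positions are those deposited (mm10), with 1 added to each start so that they count from 1. They place Klf2 at chromosome 8, 72319033 to 72321656, Klf4 at chromosome 4, 55527143 to 55532466, and Klf5 at chromosome 14, 99298691 to 99313405. None of these genes overlaps another annotated gene in GENCODE M21. Klf3 (chromosome 5, 64803523 to 64830129) overlaps Gm20033 on the other strand and C230096K16Rik on its own. Klf7 (chromosome 1, 64029447 to 64122282) overlaps 3 annotated genes, Klf13 (chromosome 7, 63886347 to 63938915) 2 and Klf9 (chromosome 19, 23141226 to 23166911) 1. Values of these 4 genes could include reads from the overlapping genes, since the use of strand for the FPKM values is not given in the sources used here. Klf6 (chromosome 13, 5861489 to 5870393), Klf10 (chromosome 15, 38294413 to 38300707) and Klf16 (chromosome 10, 80567124 to 80577321) overlap none.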

How the data were processed

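Murine ESCs were profiled by RNA-seq. Per the study's methods, mapping of single-end reads was done with tophat2 against mm10, guided by Ensembl genes, and reads mapping to more than 1 place were dropped; the submitters' processing notes also name Cufflinks and Cuffdiff, without versions. For every culture the authors deposited FPKM for each gene, flanked by bounds whose level is not stated. The methods speak of rRNA depletion, the labels of polyA RNA. Read totals and counts were not used here, so no count test was run, although the study's own test was on counts.

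Values were analysed as log2(FPKM + 1) for 12927 genes at 1 FPKM or more in at least 2 of 8 cultures, in 1 limma fit (limma 3.58.1, R 4.3.3, mean-variance trend, two-sided) over the 4 conditions, with Benjamini-Hochberg adjustment over all genes in each of 6 comparisons. The fit was tested on simulated data. Of 39013 entries in each table, 22 identifiers were repeated, leaving 38991 genes. Named genes were the 10 members, tested KLF and SP relatives, for each fixed list at most the 3 called genes with the largest change in a comparison, and the 3 genes with the most similar pattern to each of Klf2, Klf4 and Klf5, of which 1 is not reported here. Members and lists were chosen with earlier results of these data known. Alternatives were the pseudocount (0.1 or 5), the filter, TPM, median-of-ratios or quantile scaling, no trend, only the compared groups, a replicate block, leaving out each culture and, chosen after seeing the data, the midpoint of the deposited bounds. Promoters came from RefSeq (GRCm38.p6).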

Additional observations from a re-analysis of the deposited data

How the results depend on the processing

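The calls for Klf4 and Klf5 in 2i, Klf4 and Klf7 in LIF+PD against 2i+LIF, and Klf3, Klf4 and Klf5 in both comparisons with 2i were, of 28, among the 10 kept in every alternative and the 3 of Klf7 kept wherever it was tested; a filter at a mean of 5 FPKM removed Klf7. With 2 cultures a condition, precision is limited: leaving out a culture assumes that the lone one varies like the rest, and read totals are not given. Without 1 culture the count of KLF calls ranged from 2 to 5 (2i against 2i+LIF, 4 in full), 2 to 5 (LIF+PD, 5), 0 to 3 (CH+LIF, 4), 4 to 6 (LIF+PD against 2i, 6), 3 to 4 (CH+LIF against 2i, 4) and 2 to 5 (CH+LIF against LIF+PD, 5). The counts over all genes ranged, in the same order, from 1167 to 2141, 1687 to 3342, 1520 to 3330, 1970 to 2966, 1494 to 2705 and 2311 to 3991. KLF calls in CH+LIF against 2i+LIF were 2 with no filter, TPM, quantile normalization or no trend; with only the 2 groups compared, 1500 genes were called in 2i against 2i+LIF and 1808 in CH+LIF against 2i. The cause was not tested. Apart from left-out cultures, 15 of the 28 calls were kept throughout, as were the 3 of Klf7 where tested; TPM ended those of Klf2 in LIF+PD and CH+LIF and Klf3 in 2i, and all 3 of Klf6. Fitting only the 2 groups compared ended the calls of Klf3 in 2i and LIF+PD, Klf6 in CH+LIF, and Klf6 and Klf9 in LIF+PD and Klf10 in CH+LIF against 2i. No filter ended those of Klf3 in LIF+PD and CH+LIF, Klf6 in CH+LIF and Klf6 in LIF+PD against 2i. Quantile normalization and no trend ended Klf3 in LIF+PD and CH+LIF and Klf6 in CH+LIF; median-of-ratios scaling (adjusted p = 0.0594) and a pseudocount of 0.1 ended Klf3 in LIF+PD, and a pseudocount of 5 Klf6 in CH+LIF.

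Differences that changed sign were all small and not called. Under TPM these were Klf5 in LIF+PD (0.10) and Klf4 (0.18), Klf9 (0.18), Klf10 (0.12), Klf13 (0.17) and Klf16 (0.0748) in CH+LIF, against 2i+LIF; Klf6 (0.10) and Klf16 (0.11) in CH+LIF against 2i; and Klf2 in CH+LIF against LIF+PD (0.0646). Quantile normalization gave 0.0326 for Klf6 in CH+LIF against 2i and 6.9e-05 for Klf2 in CH+LIF against LIF+PD, and the midpoint of the bounds 0.0022 for the latter. Without 1 culture, against 2i+LIF, Klf13 in 2i ranged from −0.12 to 0.33, Klf6 in LIF+PD from −0.0595 to 0.19, Klf5 in LIF+PD from −0.10 to 0.0386, and Klf13 from −0.14 to 0.0832 and Klf4 from −0.19 to 0.13 in CH+LIF. Against 2i, Klf10 in LIF+PD ranged from −0.0402 to 0.14, and in CH+LIF Klf7 from −0.39 to 0.0701, Klf13 from −0.36 to 0.0977, Klf6 from −0.0964 to 0.0328 and Klf16 from −0.0744 to 0.0275. In CH+LIF against LIF+PD, Klf3 ranged from −0.0113 to 0.11, Klf2 from −0.18 to 0.18 and Klf13 from −0.0207 to 0.35.

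The labels do not say whether cultures with the same replicate number were handled together. Their deviations from the condition means correlated between −0.0283 and 0.0925, which cannot decide this. With the replicate block, 4, 5, 4, 6, 4 and 5 KLF genes were called in the 6 comparisons in the order above, the same counts as without it. Over all genes 2547, 3470, 3519, 3467, 3338 and 4105 were called, against 2408, 3263, 3286, 3242, 3089 and 3928 without the block. The reason for these higher counts was not tested.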
